A study of Homo sapiens with 9 samples.

Results

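Glycolysis and the response to low oxygen were followed here through 40 listed genes in PANC-1, a human cell line from a pancreatic carcinoma, after exposure to the small molecule BRD7552. The list was chosen with earlier results of these data known, and its genes were looked up by symbol in the probe annotation. Of the 40 listed genes, 38 had at least 1 probe set used, out of 19775 genes in all, and these 38 genes were covered by 91 probe sets. CA9 and SLC16A3 were not analysed here. The list holds 3 glucose and lactate transporters, 16 glycolytic enzymes, 5 enzymes that set the flux of the pathway and 16 other hypoxia-regulated genes. Each gene was read from its brightest probe set (the highest mean over 9 arrays), and SLC2A3 alone lay below the filter on low signal (log2 4.15), so 37 genes passed it.

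The arrays fell into 3 groups of 3: PANC-1 cells given 5 uM BRD7552 for 72 h, cells given 5 uM BRD7552 for 6 h, and cells given the solvent DMSO, for which the labels give no time. The dose was chosen, per the series' design text, as the lowest that gave the strongest induction of Pdx1. Total RNA was labelled with biotin and hybridised to 1 array per sample. Both BRD7552 groups were set against the same 3 DMSO arrays, so their differences from DMSO are not independent of each other. With no known time for DMSO, time in culture and exposure to BRD7552 cannot be told apart in either difference from DMSO. In bulk RNA, fewer cells of a kind and less of a transcript per cell cannot be told apart. Nothing in the labels says that the 3 samples of a group came from separate cultures, so the errors below cover the spread among these samples, which may be technical.

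Arrays of the 72 h group resembled each other least. Their mean rank correlation with arrays of the same group was 0.958 to 0.971, against 0.985 to 0.987 among the 6 h arrays and 0.989 to 0.990 among the DMSO arrays. Replicates 2 and 3 at 72 h had an upper quartile of signal of 97.5 and 99.7, against 112 to 119 on the other 7 arrays. The ratio of 3' to 5' ACTB probe sets, a mark of RNA quality, was 2.07 to 2.21 at 72 h, 1.74 to 2.05 at 6 h and 1.91 to 2.01 in DMSO. Of 8 measured ductal markers 7 lay above the filter, and their summed signal was 27824 to 29668 at 72 h, 34896 to 35050 at 6 h and 34542 to 35438 in DMSO. None of 5 endocrine markers and none of 5 measured leukocyte markers lay above the filter, while 1 of 5 acinar, 2 of 5 fibroblast, 1 of 4 endothelial and 1 of 2 red cell markers did. The part of these differences between the groups in the results below was not tested.

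Glycolysis splits glucose into pyruvate in the cytosol. Hexokinases trap glucose in the cell, phosphofructokinases commit it to the pathway, and aldolase, phosphoglycerate kinase, enolase and pyruvate kinase carry the later steps before lactate dehydrogenase turns pyruvate into lactate. Bifunctional PFKFB enzymes make or remove the activator of phosphofructokinase, and pyruvate dehydrogenase kinases (PDK) hold pyruvate back from the mitochondria. When oxygen is low, prolyl hydroxylases of the EGLN family stop marking HIF1A for degradation. The stabilised factor then raises transcription of many glycolytic genes together with genes of blood vessel growth, mitochondrial turnover and collagen modification. HIF1A itself is controlled mainly at the level of its protein, which arrays do not measure.

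HIF1A and its partner bind a short core, ACGTG or GCGTG, in the control regions of their targets. The 250 bases before the transcript start are printed for the 4 genes called at 72 h (limma adjusted p below 0.05 against DMSO) that have a single start in the RefSeq table (build GRCh38.p14). They are all the listed genes that met this rule, whatever the direction of their change. Capitals mark each core on either strand (CACGT and CACGC are the same cores read from the other strand), with overlapping matches joined.
BNIP3 promoter (chr10:131981924-131982173, minus strand): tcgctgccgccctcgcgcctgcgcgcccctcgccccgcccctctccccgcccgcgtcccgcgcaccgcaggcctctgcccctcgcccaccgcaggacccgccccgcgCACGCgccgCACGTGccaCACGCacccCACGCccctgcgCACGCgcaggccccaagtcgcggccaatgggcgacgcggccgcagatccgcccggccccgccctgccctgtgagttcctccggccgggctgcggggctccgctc
ENO1 promoter (chr1:8878687-8878936, minus strand): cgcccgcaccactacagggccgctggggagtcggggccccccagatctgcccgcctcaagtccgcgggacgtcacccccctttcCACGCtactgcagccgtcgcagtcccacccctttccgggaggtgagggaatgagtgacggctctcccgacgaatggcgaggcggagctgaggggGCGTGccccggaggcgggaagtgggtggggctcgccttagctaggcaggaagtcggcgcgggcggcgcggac
ENO2 promoter (chr12:6914330-6914579, plus strand): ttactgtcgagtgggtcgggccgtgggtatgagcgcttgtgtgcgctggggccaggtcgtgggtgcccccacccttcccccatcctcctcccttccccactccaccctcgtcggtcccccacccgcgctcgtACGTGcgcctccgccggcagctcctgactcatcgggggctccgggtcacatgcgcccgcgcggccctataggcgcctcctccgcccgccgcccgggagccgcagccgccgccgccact
P4HA2 promoter (chr5:132227092-132227341, minus strand): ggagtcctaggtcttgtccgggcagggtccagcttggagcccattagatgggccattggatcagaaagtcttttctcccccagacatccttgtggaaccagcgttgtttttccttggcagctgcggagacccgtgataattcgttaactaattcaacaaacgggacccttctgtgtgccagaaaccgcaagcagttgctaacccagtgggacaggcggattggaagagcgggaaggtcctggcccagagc
BNIP3, which rose at 72 h, has 5 such stretches. ENO1 and ENO2, which fell, have 2 and 1, and P4HA2, which fell furthest on the list, has 0 in this window. The P4HA2 window lies inside the span of its gene, whose 5' end is at base 132227853, so it describes a start within the gene. The sequence before that outer end was not examined. The windows of BNIP3, ENO1 and ENO2 directly adjoin the 5' ends of their genes. Over the 33 listed genes matched to the table, 27 had a core before at least 1 of their starts. These were 2 of 2 matched genes called higher at 72 h, 9 of 10 called lower and 16 of 21 not called. Per start, 35 of 59 windows of the listed genes (59.3%) held a core, against 43.2% of all 35116 windows of this length. Taken singly, ACGTG stood in 37.3% of the windows of the listed genes and in 18.5% of all windows, and GCGTG in 37.3% and 32.2%. A match of 5 letters describes the sequence only. VEGFA, PFKFB2, BNIP3L, NDRG1 and SLC2A3 have no entry in the table.

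After 72 h, 15 of the 37 genes differed from DMSO in limma's fit over all genes (adjusted p below 0.05), 5 of them higher and 10 lower. Over all 12678 genes tested 26.6% were called, 8.33% higher and 18.3% lower, so a share of called genes of that order is the background to these counts. Since the list was chosen with earlier results of these data known, its share was not tested against that background. Under quantile normalization 54.4% of all called genes were lower and under cyclic loess 52.5%, against 68.7% with the values as deposited, while the listed genes gave 5 higher and 10 lower under each of the 3. The genes were not all the same: under cyclic loess KDM3A lost its call (limma adjusted p = 0.0684) and PGK1 was called lower (0.0249). Median centring of each array gave fewer calls among the listed genes, 4 higher and 5 lower. Of the 37 genes, 20 had 72 h arrays that lay wholly to one side of the DMSO arrays, against 36.9% of all genes tested. After 6 h, 1 of the 37 genes differed from DMSO, VEGFA, against a background of 0.473% of all genes tested (0.363% higher, 0.110% lower). At an unadjusted p below 0.05 limma gave 582 genes over the whole array at 6 h and 4683 at 72 h.

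**Figure D1:**
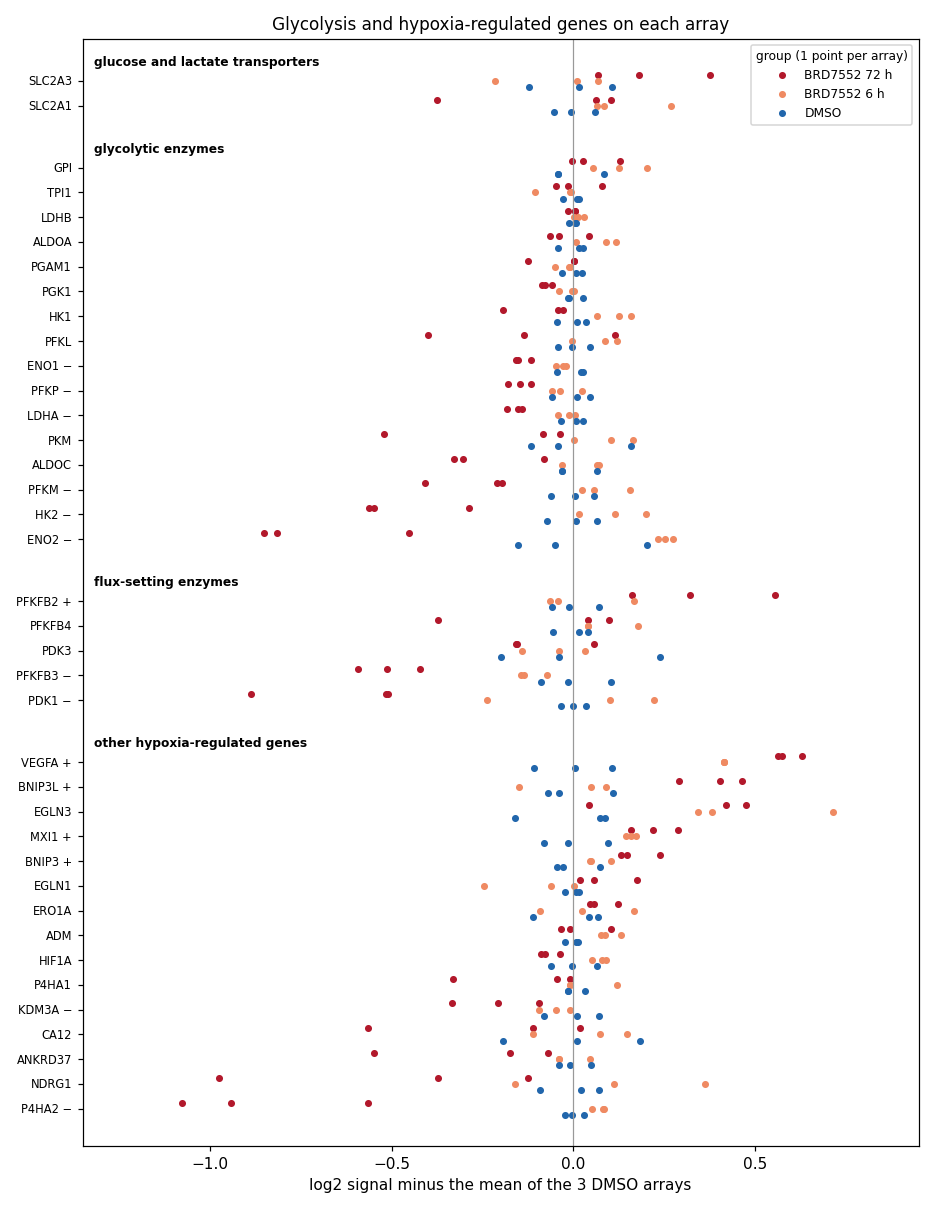
Log2 signal of each of the 38 genes on each array, minus the mean of the 3 DMSO arrays (horizontal axis), with 1 point per array for BRD7552 72 h, BRD7552 6 h and DMSO. A plus or minus sign after a name marks a gene called higher or lower at 72 h; the 72 h points of ENO2, HK2, PDK1, PFKFB3 and P4HA2 lie left of all other points of their gene, and those of VEGFA right of them.

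The transporters gave no call. SLC2A1, the main glucose carrier of most dividing cells, had signals of 119, 116 and 85.6 on the 72 h arrays, 134, 118 and 116 on the 6 h arrays and 116, 107 and 110.5 on the DMSO arrays. Its 72 h arrays spanned the DMSO arrays, with a log2 change of -0.070 ± 0.13 and a 95% interval of 0.790 to 1.15 times DMSO. SLC2A3, a high-affinity glucose carrier, stayed between 8.74 and 13.2 on all 9 arrays and was not tested. A further 2 probe sets, shared with SLC2A14, were left out.

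Among the 16 glycolytic enzymes, 6 fell at 72 h, none rose and 10 were not called. Median centring left 2 of these falls, ENO2 and HK2, and a fit without the mean-variance trend called 4 enzymes lower. ENO2, the neuronal form of enolase, fell the most of the 16. Its signal was 93.4, 72.6 and 70.8 on the 72 h arrays, 152, 150.3 and 154 on the 6 h arrays and 115, 147 and 123 on the DMSO arrays. The 72 h arrays were the lowest 3 of the 9 and the 6 h arrays the highest 3. The signal at 72 h was 0.613 times (95% interval 0.509 to 0.737) that in DMSO, a log2 change of -0.71 ± 0.12 (SE; limma adjusted p = 0.000703). At 6 h the log2 change was 0.25 ± 0.12, not called (adjusted p = 0.9998), although the 6 h and DMSO arrays did not overlap, which was also true of 12.2% of all genes tested.

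HK2, the inducible hexokinase of many tumours, fell at 72 h. Its signal was 169.8, 142 and 140.3 on the 72 h arrays, 209, 224 and 238 on the 6 h arrays and 217, 208 and 197 on the DMSO arrays, so each 72 h array lay below each of the other 6. The level was 0.724 times (95% interval 0.630 to 0.832) that of DMSO (log2 -0.47 ± 0.094, limma adjusted p = 0.00194). With replicates 2 and 3 at 72 h both left out, 1 array remains in that group and is assumed to vary like the other groups; the log2 change was then -0.29 (adjusted p = 0.0633). HK1, the hexokinase found in most tissues, had signals of 1302, 1444 and 1459 on the 72 h arrays, 1661, 1623 and 1556 on the 6 h arrays and 1525, 1441 and 1497 on the DMSO arrays. The 72 h arrays overlapped the DMSO arrays and the 6 h arrays lay above both. Its log2 change at 72 h was -0.088 ± 0.050 and was not called (adjusted p = 0.22). With replicate 1 as the only 72 h array the log2 change of HK1 was -0.19.

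The phosphofructokinase genes differed in their calls. PFKM, the muscle form, had signals of 428, 424 and 369 on the 72 h arrays, 546, 509.8 and 499 on the 6 h arrays and 492, 470.3 and 509.6 on the DMSO arrays, with all 72 h arrays below the rest. It fell to 0.828 times (95% interval 0.749 to 0.917) the DMSO level (log2 -0.27 ± 0.069, limma adjusted p = 0.00841), a call lost under median centring (adjusted p = 0.103); with replicate 1 as the only 72 h array the log2 change was -0.20 (adjusted p = 0.101). PFKP, the platelet form, had signals of 2858, 2985 and 2925 on the 72 h arrays, 3293, 3110.3 and 3157 on the 6 h arrays and 3343, 3110.3 and 3261 on the DMSO arrays. All 72 h arrays lay below the rest. PFKP fell by 0.15 ± 0.039 on the log2 scale (adjusted p = 0.0107), a call lost without DMSO replicate 1 (adjusted p = 0.0619) or under median centring (0.36). PFKL, the liver form, spread from 68.3 to 97.6 at 72 h and gave no call (log2 -0.14 ± 0.13).

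ENO1 and LDHA fell by smaller amounts than ENO2. ENO1, the enolase of most tissues, had signals of 8650.0, 8860.1 and 8616 on the 72 h arrays, 9477, 9427 and 9305 on the 6 h arrays and 9745, 9315 and 9784 on the DMSO arrays. No 72 h array reached the lowest array of another group, and ENO1 fell to 0.906 times (95% interval 0.866 to 0.947) the DMSO level (log2 -0.14 ± 0.030, limma adjusted p = 0.00271), a call lost under median centring (adjusted p = 0.376) and without the mean-variance trend (0.0605). LDHA, the lactate dehydrogenase subunit that favours lactate formation, had signals of 10789, 10877 and 10565 on the 72 h arrays, 11649.6, 12032 and 11901 on the 6 h arrays and 11715, 12057 and 12224 on the DMSO arrays. Its 72 h arrays were the lowest 3 of the 9. It fell to 0.895 times (95% interval 0.857 to 0.935) the DMSO level (log2 -0.16 ± 0.029, adjusted p = 0.000948), a call lost under median centring (log2 -0.12, adjusted p = 0.306). LDHB, the other subunit, had a log2 change of -0.0012 ± 0.027, with a 95% interval of 0.959 to 1.04 times. PKM, pyruvate kinase, had signals of 872, 1219.7 and 1179 on the 72 h arrays, 1399.9, 1343 and 1251 on the 6 h arrays and 1152, 1214 and 1397 on the DMSO arrays. The first 72 h array was the lowest of the 9 and the other 2 lay among the DMSO arrays, and PKM was not called at 72 h (log2 -0.21 ± 0.10, adjusted p = 0.143). With that first array as the only one at 72 h, the log2 change of PKM was -0.52.

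The remaining enzymes of the group, GPI, ALDOA, ALDOC, TPI1, PGK1 and PGAM1, were not called at either time. Their log2 changes at 72 h ran between -0.24 in ALDOC, an aldolase of the brain, and 0.051 in GPI, glucose-6-phosphate isomerase. PGK1, the first enzyme of the pathway to yield ATP, had 72 h arrays below all DMSO arrays by a small amount (-0.075 ± 0.030, adjusted p = 0.0766). PGK1 was called lower under cyclic loess (log2 -0.10, adjusted p = 0.0249), with its probe sets averaged (-0.17, 0.0454) and under a stricter filter on low signal (0.0499). Its 3 other probe sets above the filter gave log2 changes of -0.15, -0.22 and -0.19, and each was called lower in the fit over all probe sets.

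**Figure D2:**
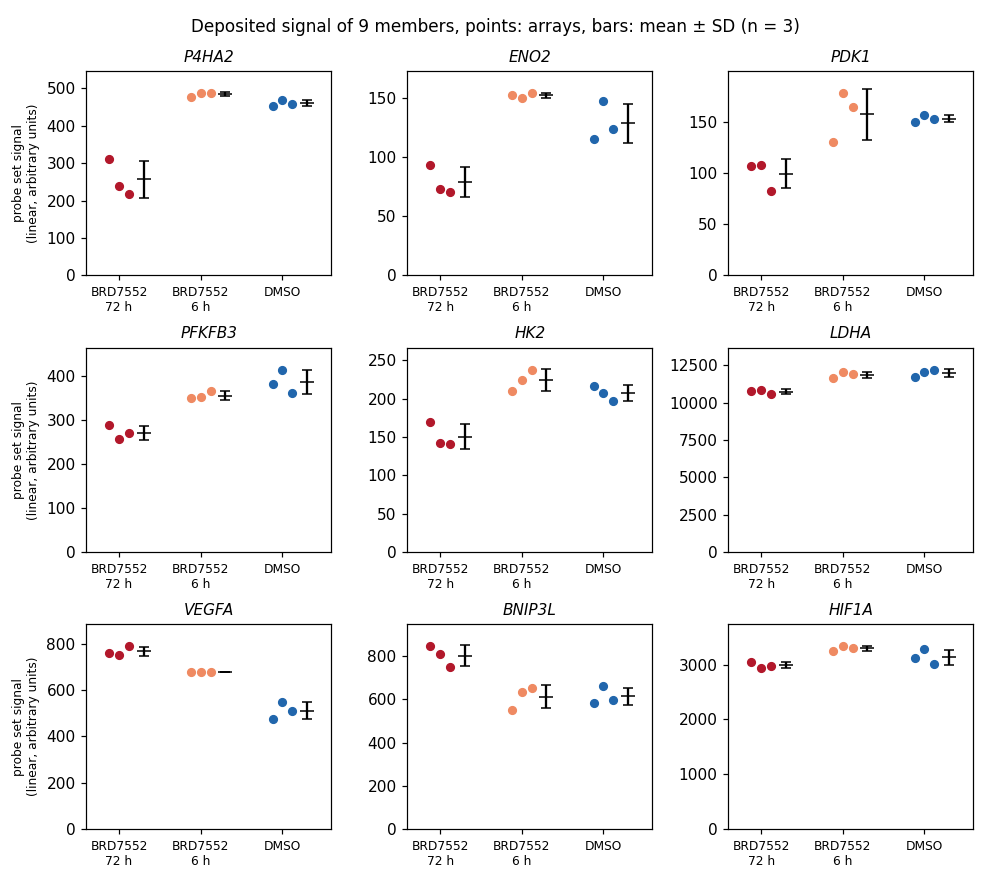
Deposited probe set signal (vertical axis, linear, arbitrary units, starting at 0) of 9 genes on each array of BRD7552 72 h, BRD7552 6 h and DMSO, with the mean and SD of each group (n = 3) beside the points. P4HA2, ENO2, PDK1, PFKFB3, HK2 and LDHA lie lower at 72 h, VEGFA and BNIP3L higher; VEGFA has the same value, 681, on all 3 arrays at 6 h.

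The enzymes that set the flux moved in both directions at 72 h, with 1 of 5 higher, 2 lower and 2 not called. PDK1, which switches off pyruvate dehydrogenase, had signals of 107, 107 and 82.7 on the 72 h arrays, 129.7, 178 and 164 on the 6 h arrays and 149, 157 and 153 on the DMSO arrays. The 72 h arrays were the lowest 3, and the gene fell to 0.643 times (95% interval 0.531 to 0.778) the DMSO level (log2 -0.64 ± 0.13, limma adjusted p = 0.00196). Averaged over its probe sets PDK1 was not called (log2 -0.26, adjusted p = 0.0816). PFKFB3, the PFKFB form with the strongest kinase activity, had signals of 288, 256 and 270.0 on the 72 h arrays, 349, 351 and 367 on the 6 h arrays and 382, 414 and 362 on the DMSO arrays. All 72 h arrays lay below the others, and it fell to 0.703 times (95% interval 0.632 to 0.782) the DMSO level (log2 -0.51 ± 0.072, adjusted p = 0.000102). PFKFB2, the form first described in heart, had signals of 257, 218 and 195 on the 72 h arrays, 167, 196 and 169.6 on the 6 h arrays and 168, 183 and 173 on the DMSO arrays. It rose to 1.27 times (95% interval 1.09 to 1.48) the DMSO level (log2 0.35 ± 0.10, adjusted p = 0.0232), its lowest 72 h array lying below the highest at 6 h but above all DMSO arrays. That call was lost without 72 h replicate 1 (adjusted p = 0.0595), without DMSO replicate 1 (0.0894) or without DMSO replicate 3 (0.0737), and turned to -0.010 when the probe sets of the gene were averaged. PFKFB4 and PDK3, further members of both families, gave -0.078 ± 0.13 and -0.085 ± 0.14 on the log2 scale, neither called.

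None of these 5 genes was called at 6 h, where their log2 changes ran from -0.12 in PFKFB3 to 0.087 in PFKFB4.

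The other hypoxia-regulated genes were split at 72 h, with 4 of 15 higher, 2 lower and 9 not called, and HIF1A and its hydroxylases were not called against DMSO at either time. HIF1A, the oxygen-regulated subunit of the factor, had signals of 3054, 2949 and 2969.7 on the 72 h arrays, 3251, 3335 and 3313 on the 6 h arrays and 3126, 3279.8 and 3004 on the DMSO arrays. The 72 h arrays overlapped the DMSO arrays (log2 -0.068 ± 0.038, 95% interval 0.902 to 1.01 times, limma adjusted p = 0.216). EGLN1, the main prolyl hydroxylase that marks HIF1A, had signals of 1229, 1130.3 and 1101 on the 72 h arrays, 918, 1042 and 1089 on the 6 h arrays and 1069, 1099.7 and 1094 on the DMSO arrays. Its 72 h arrays lay just above DMSO, without a call (log2 0.083 ± 0.061, adjusted p = 0.359). EGLN3, a hydroxylase that is itself a HIF target, was dim, with signals of 21.1 to 28.5 at 72 h, 26.0 to 33.6 at 6 h and 18.3 to 21.8 in DMSO, and was called at neither time (log2 0.31 ± 0.16 at 72 h and 0.48 ± 0.16 at 6 h).

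VEGFA, the growth factor that draws new blood vessels, rose at both times and was the only listed gene called at 6 h. Its signal was 761, 754 and 789.6 on the 72 h arrays, 681, 681 and 681 on the 6 h arrays and 474, 549.6 and 512 on the DMSO arrays. The 3 groups did not overlap, with 72 h above 6 h and 6 h above DMSO. The signal was 1.50 times (95% interval 1.38 to 1.64) DMSO at 72 h (log2 0.59 ± 0.058, limma adjusted p = 3.34e-06) and 1.33 times (95% interval 1.22 to 1.45) DMSO at 6 h (log2 0.41 ± 0.058, adjusted p = 0.0019). The identical values at 6 h give that group an SD of 0, which is a property of the deposited values and makes its spread too small. Averaged over its probe sets, VEGFA was not called at 72 h (log2 0.20, adjusted p = 0.0563) or at 6 h (log2 0.25, adjusted p = 0.549).

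BNIP3 and BNIP3L, outer-membrane receptors that mark mitochondria for removal, both rose at 72 h. BNIP3L had signals of 846, 811 and 749.7 on the 72 h arrays, 552, 634 and 652 on the 6 h arrays and 584, 661 and 597 on the DMSO arrays. Its 72 h arrays were the highest 3, at 1.31 times (95% interval 1.18 to 1.45) DMSO (log2 0.39 ± 0.071, limma adjusted p = 0.000984). BNIP3 had signals of 2837, 2806 and 3024 on the 72 h arrays, 2647, 2652 and 2754 on the 6 h arrays and 2484, 2511 and 2696 on the DMSO arrays. Its arrays were separated too, by less, at 1.13 times (95% interval 1.06 to 1.20) DMSO (log2 0.17 ± 0.043, adjusted p = 0.00743). The BNIP3 call was lost when its probe sets were averaged (log2 0.11, adjusted p = 0.0738) and without the mean-variance trend (0.0603). With replicate 1 as the only 72 h array, the log2 change of BNIP3 was 0.15.

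P4HA2, a prolyl hydroxylase of collagen in the endoplasmic reticulum, had the largest fall of all listed genes. Its signal was 311, 239.7 and 218 on the 72 h arrays, 477, 488 and 487 on the 6 h arrays and 453, 469.6 and 459 on the DMSO arrays. The highest 72 h array lay far below the lowest of the other 6, and the level was 0.550 times (95% interval 0.476 to 0.636) that of DMSO (log2 -0.86 ± 0.10, limma adjusted p = 1.43e-05). P4HA1, which makes the same kind of catalytic subunit, was not called (log2 -0.13 ± 0.070, with signals of 991 to 1240.3 at 72 h and 1234 to 1275 in DMSO).

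MXI1, a repressor that competes for the partner of MYC, had signals of 346, 317 and 330.1 on the 72 h arrays, 320.1, 314 and 317 on the 6 h arrays and 281, 268 and 303 on the DMSO arrays. Both BRD7552 groups lay above all DMSO arrays, and at 72 h the gene rose by 0.22 ± 0.069 on the log2 scale (limma adjusted p = 0.0278), a call lost without DMSO replicate 1 (adjusted p = 0.0903) or DMSO replicate 2 (0.119). It was also lost under median centring (0.0555), in the fit of only the 2 groups compared (0.0582) and with array weights (0.0878). KDM3A, a histone demethylase induced by HIF1A, had signals of 359, 332 and 304 on the 72 h arrays, 359, 371 and 381 on the 6 h arrays and 386, 402 and 362 on the DMSO arrays. Its highest 72 h array lay just under its lowest DMSO array. It fell by 0.21 ± 0.073 on the log2 scale at 72 h with an adjusted p of 0.0424, close to the threshold, and that call was lost under 15 of 21 alternatives (adjusted p up to 0.691), among them the omission of 72 h replicate 2 or 3, of 6 h replicate 2 or 3, or of DMSO replicate 1 or 2 (adjusted p = 0.0569 to 0.154). NDRG1, a stress-induced protein of the cytosol, had signals of 52.5, 29.1 and 44.3 on the 72 h arrays, 61.9, 73.7 and 51.3 on the 6 h arrays and 53.8, 58.2 and 60.2 on the DMSO arrays. Its 72 h arrays lay below the DMSO arrays but spread widely, and it was not called against DMSO (log2 -0.49 ± 0.19, adjusted p = 0.072), except without 72 h replicate 1 (log2 -0.67, adjusted p = 0.0161).

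The other 4 genes of the group, ADM, CA12, ANKRD37 and ERO1A, were not called at 72 h or at 6 h. ADM, a peptide hormone that widens vessels, had a log2 change of 0.020 ± 0.039 at 72 h, and ERO1A, an oxidase of the endoplasmic reticulum, one of 0.075 ± 0.066. CA12, a membrane carbonic anhydrase, and ANKRD37, an ankyrin-repeat protein, gave -0.22 ± 0.16 and -0.26 ± 0.12. Without 72 h replicate 3, ANKRD37 was called lower (log2 -0.36, adjusted p = 0.0446).

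Set side by side, glycolytic enzymes gave 0 higher and 6 lower of 16 at 72 h, and the other hypoxia-regulated genes 4 higher and 2 lower of 15. Under median centring these counts were 0 higher and 2 lower, and 3 higher and 1 lower. Over all genes tested, 8.33% were called higher and 18.3% lower at 72 h with the values as deposited. The median log2 change at 72 h was -0.14 for the glycolytic enzymes, 0.020 for the other hypoxia-regulated genes and -0.062 for all genes tested. Array by array, the median of the glycolytic enzymes relative to the DMSO mean was -0.15, -0.098 and -0.082 at 72 h, 0.027, 0.063 and 0.0029 at 6 h, and -0.020, -0.014 and 0.024 in DMSO, so the 72 h arrays were the lowest 3. For the other hypoxia-regulated genes it was 0.043, -0.0084 and 0.018 at 72 h, 0.053, 0.050 and 0.082 at 6 h, and -0.022, 0.029 and 0.0076 in DMSO. Here the 72 h arrays overlapped the DMSO arrays and the 6 h arrays lay above them. Without 72 h replicate 1 the median of the other hypoxia-regulated genes at 72 h turned to -0.021. At 6 h the medians against DMSO were 0.051 for the glycolytic enzymes and 0.067 for the other hypoxia-regulated genes, beside -0.00095 for all genes. Between 72 h and 6 h the medians were -0.13 for the glycolytic enzymes and -0.14 for the other hypoxia-regulated genes, beside -0.060 for all genes. The difference between the lists was not tested, since their members were chosen with results of these arrays known.

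**Figure D3:**
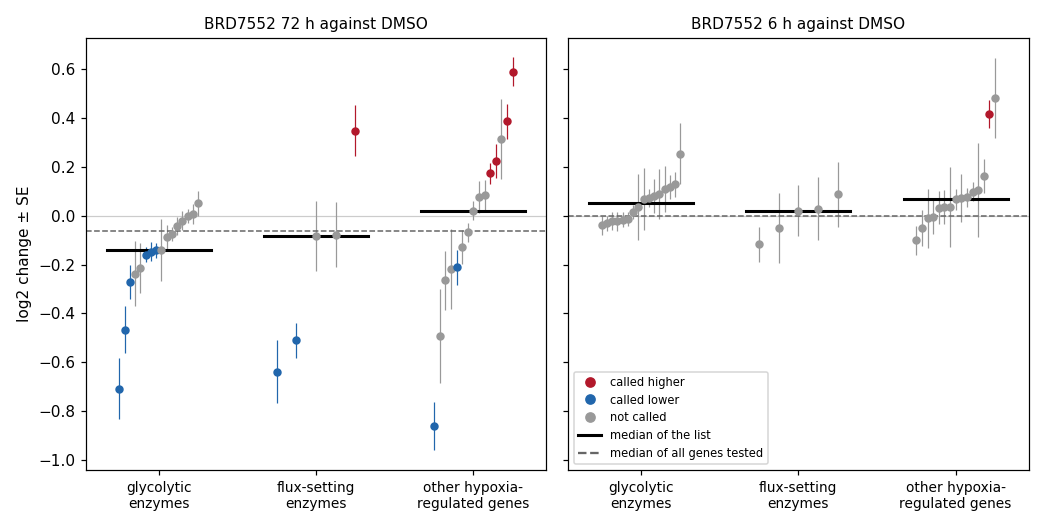
Log2 change ± SE of each gene of 3 lists at 72 h (left) and 6 h (right) against DMSO, coloured by call, with the median of each list (solid line) and of all genes tested (dashed line). At 72 h the called glycolytic enzymes are all below 0 and the called hypoxia-regulated genes lie on both sides; at 6 h VEGFA alone is called.

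The 72 h arrays were also compared with the 6 h arrays. The DMSO arrays enter this comparison only through the estimate of the spread. With no DMSO group of matched time, time in culture and time with BRD7552 cannot be told apart in it. Of the 37 genes, 4 were higher and 13 lower at 72 h than at 6 h, beside a background of 24.0% called, 7.28% higher and 16.7% lower. Of all called genes, 69.6% were lower with the values as deposited, 53.2% under quantile normalization and 51.8% under cyclic loess. ENO2 and P4HA2 had the largest differences, at 0.514 times (95% interval 0.428 to 0.619) and 0.523 times (95% interval 0.453 to 0.605) the 6 h level (log2 -0.96 ± 0.12 and -0.93 ± 0.10, limma adjusted p = 7.68e-05 and 9.62e-06). PDK1, HK2, PFKFB3 and PFKM were lower as well, by log2 -0.67, -0.58, -0.39 and -0.35. Glycolytic enzymes gave 8 lower, none higher and 8 not called, now with HK1 (-0.20 ± 0.050, adjusted p = 0.00752) and PKM (-0.30 ± 0.10, adjusted p = 0.0424) among the lower ones. Median centring left 3 of these 8, ENO2, HK2 and PFKM, with HK1 at an adjusted p of 0.149 and LDHA at 0.3505. Without the mean-variance trend HK1 (0.0508) and LDHA (0.0649) were not called either, and PDK1 was not called when its probe sets were averaged (log2 -0.26, adjusted p = 0.0835).

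HIF1A was lower at 72 h than at 6 h, by a small amount (log2 -0.14 ± 0.038, limma adjusted p = 0.0138), with each 72 h array below each 6 h array (33.7% of all genes tested had no overlap between these groups). NDRG1 was lower too (-0.60 ± 0.19, adjusted p = 0.0346), although its highest 72 h array, 52.5, exceeded its lowest 6 h array, 51.3. BNIP3L (0.39), PFKFB2 (0.33), EGLN1 (0.18) and VEGFA (0.17) were higher at 72 h. Of the 17 calls between the times, 6 held under every alternative run: ENO2, HK2, PFKM, PFKFB3, BNIP3L and P4HA2. For ENO2, PFKM and PFKFB3, which have a single probe set each, averaging probe sets could not change the values. The calls of PKM, PFKFB2, EGLN1, VEGFA, NDRG1 and PFKP were each lost under 8 or more alternatives, for each of them with 4 to 6 of the 9 single arrays left out (adjusted p = 0.0508 to 0.172). HIF1A lost its call without 6 h replicate 2 (adjusted p = 0.0566) or 72 h replicate 2 (0.0546), and ENO1 without 6 h replicate 2 (0.0542). Under median centring the adjusted p was 0.354 for HIF1A and 0.522 for ENO1, and without the mean-variance trend 0.0907 and 0.135. Without 6 h replicate 1 or 6 h replicate 2, 11 listed genes were called.

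Many listed genes have several probe sets, and these did not always move together. In the fit over all 54675 probe sets, 19 of the 91 probe sets of the listed genes were called at 72 h, beside a background of 7.43%, 1 at 6 h (0.0732%) and 17 between the times (6.42%). Above the filter, 18 genes had 33 further probe sets, and their sign at 72 h differed from that of the brightest one in 8. For HK2 the further probe sets gave log2 changes of -0.47 and -0.87 and for P4HA2 -0.93, all called lower. For VEGFA they gave 0.18, 0.12 and -0.081, none called, beside 0.59 for the brightest. For PFKFB2 they gave -0.36, -0.18 and 0.15, none called, and the brightest itself was not called in that larger fit (adjusted p = 0.0699). At 72 h, 15 of the further probe sets belonged to called genes, of which 12 had the sign of the brightest and 4 were called in its direction. No further probe set was called in the direction opposite to the call of its gene.

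**Figure D4:**
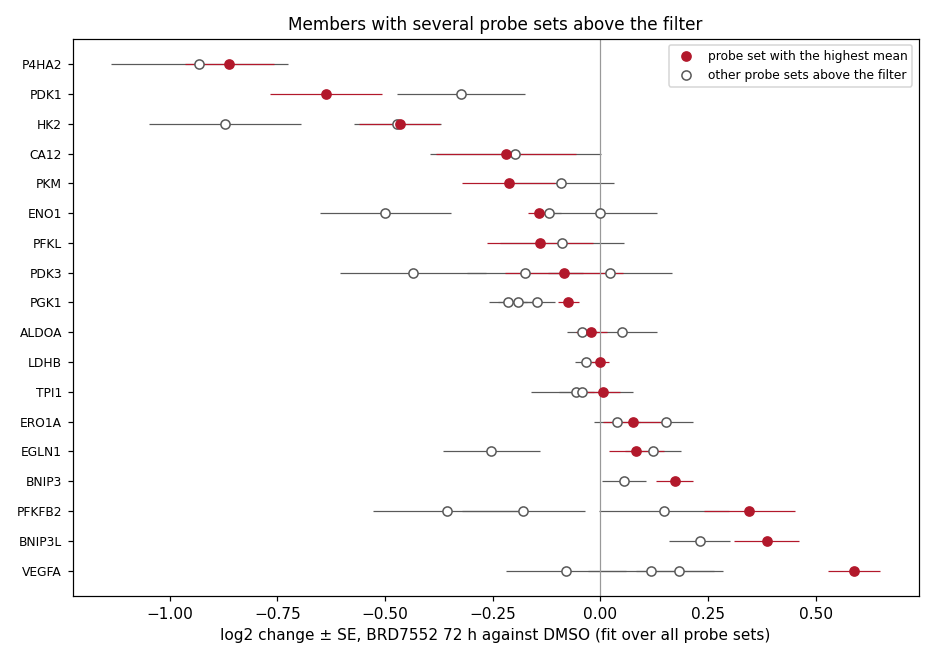
Log2 change ± SE at 72 h against DMSO (horizontal axis) of every probe set above the filter for the 18 genes with more than 1, with the brightest probe set filled and the others open. The probe sets of HK2, P4HA2 and PGK1 all lie left of 0, and those of PFKFB2 and VEGFA lie on both sides.

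Genes of the same pathways outside the list were read from 5 further lists. The background to their counts at 72 h is again that of all genes tested: 26.6% called, 8.33% higher and 18.3% lower. At 6 h it is 0.473% called. Of 13 further glycolysis genes tested, 1 rose and 4 fell at 72 h. SLC2A12, a glucose carrier, rose by 0.85 on the log2 scale. ENO3, the muscle enolase, fell by 0.53, BPGM, which makes a regulator of haemoglobin, by 0.47 and ADPGK, an ADP-dependent glucokinase, by 0.19. The ADPGK call was lost under cyclic loess (adjusted p = 0.0926). Median centring left 1 fall in this list, with ADPGK (adjusted p = 0.243) and BPGM (0.0536) not called. GAPDH, which lies between the aldolase and PGK1 steps, had 11404 ± 417 at 72 h, 11748 ± 287 at 6 h and 11721 ± 117 in DMSO (SD, n = 3 each), with a log2 change of -0.040 ± 0.033 at 72 h (limma adjusted p = 0.413). None of the 13 was called at 6 h.

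Genes for the entry of pyruvate into the mitochondria were called in both directions. Of 11 tested, 4 rose and 2 fell at 72 h, and the median log2 change was 0.084 over the 12 with a probe set. The count that rose was 5 under quantile normalization, 6 under cyclic loess and 3 under median centring. PCK2, the mitochondrial enzyme that makes phosphoenolpyruvate, is counted in this list although it is not a step of pyruvate entry. PCK2 rose by 1.52, and PDHX, a structural part of pyruvate dehydrogenase, by 0.42. PDP1, the phosphatase that undoes the action of PDK1, fell by 0.35, and PDHA1, the catalytic subunit, by 0.32. PCK2 alone was called at 6 h (log2 0.53).

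Of 15 other components of the HIF pathway tested, 1 rose and 1 fell at 72 h: CITED2, which competes with HIF1A for its coactivator, rose by 0.76, and ELOB, part of the ligase that degrades HIF1A, fell by 0.23. The count of components that rose was 4 under quantile normalization or cyclic loess. Under median centring ELOB was not called (limma adjusted p = 0.0759). EPAS1, the sister of HIF1A also called HIF2A, had signals of 3821 ± 215 at 72 h, 3786 ± 210 at 6 h and 3736 ± 78.1 in DMSO (SD, n = 3 each) and was not called (log2 0.031 ± 0.047 at 72 h, limma adjusted p = 0.688).

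Among 42 further hypoxia targets tested, 9 rose, 16 fell and 17 were not called at 72 h, beside 8.33% higher and 18.3% lower of all genes tested. Under quantile normalization 11 rose and 14 fell, under cyclic loess 11 and 15, and under median centring 7 and 12. The median log2 change was -0.091 over the 46 targets with a probe set. The 4 with the largest changes were IGFBP3, a carrier of insulin-like growth factors, which fell by 1.67, DDIT4, an inhibitor of mTORC1, which rose by 1.30, LOX, a collagen cross-linking enzyme, which fell by 0.84, and BHLHE40, a repressor of the clock, which fell by 0.83. All 4 were called in the same direction under quantile normalization, cyclic loess and median centring. DDIT4 alone was called at 6 h (log2 0.87). Of 6 genes of the pentose phosphate pathway, which branches off at glucose-6-phosphate, RPE and TALDO1 rose by 0.22 and 0.18 and RPIA fell by 0.20 at 72 h, the last call being lost under cyclic loess (adjusted p = 0.0544). Under median centring neither TALDO1 (limma adjusted p = 0.0518) nor RPIA (0.213) was called.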

How the data were processed

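Linear intensity of 54675 probe sets on 9 arrays was deposited by the authors as 1 table. Per the submitters' processing notes it was made with MAS5; its version and scaling are not stated there. Of the probe sets, 59.2% have exactly equal values on 2 or more arrays, so the SD of a gene in a group can come out too small. Intensity was log2 transformed with no further normalization or pseudocount. Symbols were taken from the platform's annotation (41097 probe sets with 1 symbol, 1801 with several, 11777 with none), and several-symbol and 62 control probe sets were left out. Each of 19775 genes was read from its brightest probe set on average, and 12678 genes with a mean of at least log2 4.15 (linear 17.8), the median probe set, were tested. Linear models (lmFit, eBayes with a mean-variance trend; limma 3.58.1, R 4.3.3) were fitted to all 9 arrays, with 6 residual degrees of freedom and Benjamini-Hochberg adjustment over all genes tested. "Rose", "fell" and "called" mean an adjusted p below 0.05; errors are standard errors unless given as SD. Other probe sets were fitted over all 54675. The fit was tested on simulated data. Levels are not compared between genes, and the number of arrays limits the precision. Values per array are given for every listed gene called in a comparison and for HIF1A, ranges or log2 changes for the rest; from the further lists up to 4 called genes with the largest changes are named, plus GAPDH and EPAS1. The listed genes, the further lists and the alternatives were chosen with earlier results of these data known. No column of other samples was present. The labels do not say whether replicate numbers pair the arrays. The 9 correlations of same-numbered arrays' deviations ran from -0.26 to 0.20, and those of differently numbered arrays from -0.32 to 0.36. Promoter sequences are RefSeq's (GRCh38.p14).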

Additional observations from a re-analysis of the deposited data

Results flagged for a closer look

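The 72 h arrays differed from the 6 h arrays for 17 listed genes by limma's test, 4 of them higher and 13 lower at 72 h. Over all genes tested 24.0% were called in this comparison, 7.28% higher and 16.7% lower. The same DMSO arrays, which carry no time, serve both exposures, so time in culture and time with BRD7552 cannot be told apart in these differences. On the log2 scale the differences among glycolytic enzymes were -0.96 for ENO2, -0.58 for HK2, -0.35 for PFKM, -0.30 for PKM, -0.20 for HK1, -0.14 for LDHA, -0.12 for PFKP and -0.11 for ENO1. Among the enzymes that set the flux they were -0.67 for PDK1, -0.39 for PFKFB3 and 0.33 for PFKFB2. Among the other hypoxia-regulated genes they were -0.93 for P4HA2, -0.60 for NDRG1, -0.14 for HIF1A, 0.39 for BNIP3L, 0.18 for EGLN1 and 0.17 for VEGFA. VEGFA lay above DMSO at both times, whereas ENO2 had a log2 change of -0.71 at 72 h and 0.25 at 6 h against DMSO, the second not called.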

How the results depend on the processing

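Of the 15 listed genes called at 72 h, 4 kept their call under all 21 alternatives (ENO2, PFKFB3, BNIP3L and P4HA2), and 6 of the 17 called between the times did. ENO2 and PFKFB3 have a single probe set each, so averaging probe sets could not change their values. The cause of the changes below was not tested. Median centring of each array gave 37 genes called at 6 h (main 60), 2086 at 72 h (main 3378) and 1782 between the times (main 3037). Among the listed genes it gave 9 calls at 72 h (4 higher, 5 lower; main 15) and 8 between the times (main 17), with 0, 10 and 7 probe sets called (main 1, 19 and 17). The median at 72 h became -0.10 for the glycolytic enzymes (main -0.14) and 0.058 for the other hypoxia-regulated genes (main 0.020), which gave 0.048 under the stricter filter. The share of all called genes that were lower was 60.7% at 72 h under median centring and 65.8% between the times. At 6 h that share was 23.3% as deposited, 27.5% under quantile normalization, 27.2% under cyclic loess and 10.8% under median centring.

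Averaging the probe sets of a gene gave 23 genes called at 6 h, 0 listed genes at 6 h, 10 at 72 h and 11 between the times. Under it the median of the other hypoxia-regulated genes was 0.034 at 6 h (main 0.067) and turned to -0.051 at 72 h. Under the same setting PFKP turned to 0.012 and PFKFB2 to -0.010 at 72 h, and PFKP to 0.055, PFKFB2 to -0.032 and VEGFA to -0.046 between the times. Without the mean-variance trend 23 genes and 0 listed genes were called at 6 h, 8 listed genes between the times, and 0, 9 and 6 probe sets at 6 h, 72 h and between the times. With array weights 211 genes were called at 6 h, and 11 probe sets between the times. Fits of only the 2 groups compared called 0 probe sets at 6 h and 10 between the times. No filter gave 12 listed genes called between the times, and array weights likewise 12. Leaving out both 72 h arrays with a low upper quartile, chosen after seeing the data, leaves 1 array at 72 h, assumed to vary like the other groups, and gave 0 and 9 probe sets at 6 h and 72 h. Between the times it gave 1875 genes, 11 listed genes and 8 probe sets.

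Leaving out 1 array at a time gave 28 (without 6 h replicate 2) to 71 genes called at 6 h, 2294 to 4224 at 72 h and 2125 to 4000 between the times. Among the listed genes the ranges were 1 to 1, 11 to 15 and 11 to 16, and among their probe sets 0 to 1, 10 (without DMSO replicate 1) to 23 and 8 (without 6 h replicate 2) to 21. The median of the glycolytic enzymes ran from 0.025 to 0.051 at 6 h and from -0.16 to -0.10 at 72 h, and that of the other hypoxia-regulated genes from 0.054 to 0.083 at 6 h and from -0.021, without 72 h replicate 1, to 0.048 at 72 h. With the replicate number as a block, 1, 14 and 15 listed genes were called at 6 h, 72 h and between the times, with 0 probe sets at 6 h and 3193 genes at 72 h. Whether the numbers pair the arrays is not known from the labels, so which of the 2 fits suits the design better was not tested. The deposited values do not go below 4.54, which limits the fold change that a dim gene can show.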
